A study of Nothobranchius furzeri with 15 samples.

Results

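The skin of turquoise killifish (Nothobranchius furzeri) exposed to rotenone at either dose was compared with the skin of fish given only the solvent. The rotenone group held all 10 samples whose labels name rotenone, of 15 samples in all, with 5 samples at 150 pM and 5 at 15 pM. The other 5 samples were the dimethyl sulfoxide (DMSO) controls. Every sample came from the skin of a 9-week-old male of the GRZ strain, a short-lived inbred laboratory strain, and the labels name no further genotype or agent. The sources used here do not give the route or length of exposure. RNA-seq reads were counted per gene, and the comparison asked which genes stood at another level with rotenone whichever of the doses was given.

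Rotenone is a plant-derived compound that blocks complex I of the mitochondrial respiratory chain, the enzyme that passes electrons from NADH to ubiquinone and pumps protons across the inner mitochondrial membrane. Blocking it lowers the rate of oxidative phosphorylation and changes the production of reactive oxygen species. Fish skin is a mixed tissue of epidermis, dermis, scales, pigment cells and resident immune cells, so in these bulk samples fewer cells of a type and less RNA per cell cannot be told apart. The deposited tables give genes by numbered identifiers only, and 0 of the 26739 identifiers could be matched to a name, so the subunits of complex I, other pathways and cell type markers were not analysed here.

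The total count averaged 24524760 ± 1814061 in the 10 rotenone samples and 25978514 ± 1577773 in the 5 DMSO samples (SD). An exact two-sided permutation test over 3003 arrangements, whose smallest p is 0.000666, gave p = 0.159 for this difference. A sample had 20723 to 21402 genes with at least 1 count with rotenone and 20966 to 21505 with DMSO (exact permutation p = 0.458). The 20 genes with the most counts in a sample took 15.9% to 32.8% of the total with rotenone and 24.8% to 33.4% with DMSO (exact permutation p = 0.252). The distance of a sample from the mean of the others at its dose was taken in log2(CPM + 1), as the root mean square over genes. It was 0.502 ± 0.171 with rotenone and 0.473 ± 0.159 with DMSO (permutation p = 0.780). Distances within a dose group depend on each other and were not recomputed for each arrangement, so this p is only approximate. Adjusted over these 4 properties, the lowest p was 0.503.

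The first 2 principal components of the expression profiles did not set the rotenone samples apart from the DMSO samples. The first component, with 22.3% of the variance, separated 15 pM replicate 4 from all other samples. On the second component, with 21.1%, 15 pM replicate 2 and DMSO replicate 5 lay together and away from the rest, at 61.5 and 60.8. These 3 libraries stood apart without a label that tells why, and the counts of changed genes are therefore given with and without them.

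**Figure D1:**
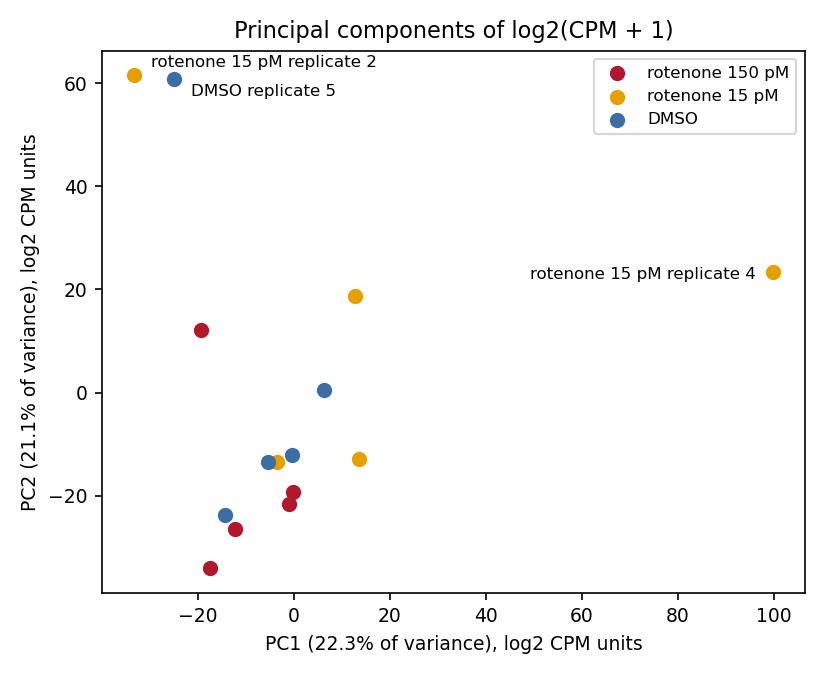
Scores of the 15 samples on the first component (22.3% of the variance) and the second (21.1%) of log2(CPM + 1), coloured by group. Rotenone 15 pM replicate 4 lies alone at the right, and rotenone 15 pM replicate 2 lies beside DMSO replicate 5 at the top, while the other samples of all groups intermingle.

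With the doses as 1 group, 2 of 18253 tested genes were called changed at an adjusted p under 0.05 by edgeR's quasi-likelihood test, 0.0110% of the genes. Both rose with rotenone, by less than 1 on the log2 scale, and 0 genes fell past this threshold. No lowered gene was called by limma-voom either, whereas 346 were called by the DESeq2 Wald test and limma-voom called 1007 once samples were weighted by quality. An unadjusted p under 0.05 was reached by 2723 genes, 14.9% of those tested, 1374 with a higher level and 1349 with a lower level.

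The gene with the smallest p was Nfu_g_1_019963, which had the tightest controls of the genes described here. With rotenone it ranged from 45.0 to 60.1 CPM with a median of 53.3 CPM (CPM are counts brought to the same library size by TMM factors), against 31.0, 30.8, 29.6, 29.3 and 31.2 CPM in the DMSO samples. Each of the 10 rotenone samples lay above every DMSO sample, and the lowest rotenone sample was well clear of the highest control. The group means were 52.4 ± 5.21 CPM with rotenone (SD, n = 10) and 30.4 ± 0.860 CPM with DMSO (SD, n = 5). The log2 fold change of 0.79 had a standard error of 0.09, and edgeR's quasi-likelihood test gave an adjusted p of 0.00246. The depth behind it was 1041 to 1626 counts per rotenone sample and 723 to 980 counts per DMSO sample. The doses stood at the same level within their spread, at 53.1 ± 6.71 CPM at 150 pM and 51.6 ± 3.83 CPM at 15 pM, and their difference of 0.04 on the log2 scale had a standard error of 0.10.

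The second called gene was Nfu_g_1_017453. It ranged from 38.6 to 65.0 CPM with a median of 47.4 CPM with rotenone, against 26.2, 27.5, 28.5, 28.9 and 23.9 CPM in the DMSO samples. The groups again did not overlap in any of the 15 samples, and the highest value, in 15 pM replicate 5, lay apart from the other rotenone samples. The means were 48.7 ± 7.27 CPM with rotenone and 27.0 ± 2.02 CPM with DMSO, from 892 to 1472 and from 663 to 752 counts per sample. The log2 fold change from edgeR was 0.85 (standard error 0.11, adjusted p = 0.0121). The doses averaged 47.8 ± 6.08 CPM at 150 pM and 49.5 ± 8.95 CPM at 15 pM, and differed by -0.05 on the log2 scale with a standard error of 0.13. Without DMSO replicate 2 the call of Nfu_g_1_017453 was lost, with an adjusted p of 0.0752, and 1 gene was left.

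The test of the dose difference itself found neither of the called genes different between 150 pM and 15 pM, with adjusted p of 0.830 and 0.842 from edgeR. Over all tested genes this test called 310, or 1.70%, in a fit that includes the DMSO samples. Fitted on the rotenone samples alone, the dose test called 44 of 17736 genes, or 0.248%. The number of dose calls therefore depends on the fit, and the reason was not tested. Dose calls within the gene sets below are given only from the fit with the DMSO samples. Where doses are taken as 1 group, a gap between them adds to the spread, so the pooled test favours genes that stand alike at both doses. The 95% intervals of the pooled log2 fold change were 0.60 to 0.97 for Nfu_g_1_019963 and 0.61 to 1.09 for Nfu_g_1_017453.

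Of the genes with a lower level, Nfu_g_1_008230 and Nfu_g_1_020069 had the smallest p. They were picked after their values were seen, because no lowered gene was called. Nfu_g_1_008230 had 32.0 to 55.6 CPM with a median of 43.4 CPM with rotenone, against 67.2, 78.1, 94.5, 74.3 and 65.6 CPM in the DMSO samples. All 10 rotenone samples lay below every DMSO sample. EdgeR's log2 fold change was -0.81 (standard error 0.13), and its adjusted p of 0.0594 missed the threshold. The doses were close to each other, at 44.9 ± 4.74 CPM at 150 pM and 41.7 ± 9.36 CPM at 15 pM.

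Nfu_g_1_020069 was a gene of low level, with 1.64 to 3.99 CPM and a median of 2.42 CPM with rotenone, against 5.07, 8.42, 4.81, 6.29 and 5.12 CPM in the DMSO samples. These values rest on 38 to 93 counts per rotenone sample and 121 to 203 counts per DMSO sample. The groups did not overlap. EdgeR's log2 fold change was -1.16 (standard error 0.19), again with an adjusted p of 0.0594. Here the higher dose stood lower, at 2.17 ± 0.311 CPM at 150 pM and 3.14 ± 0.654 CPM at 15 pM. That dose difference of -0.53 on the log2 scale did not pass the threshold (standard error 0.20, adjusted p = 0.132).

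**Figure D2:**
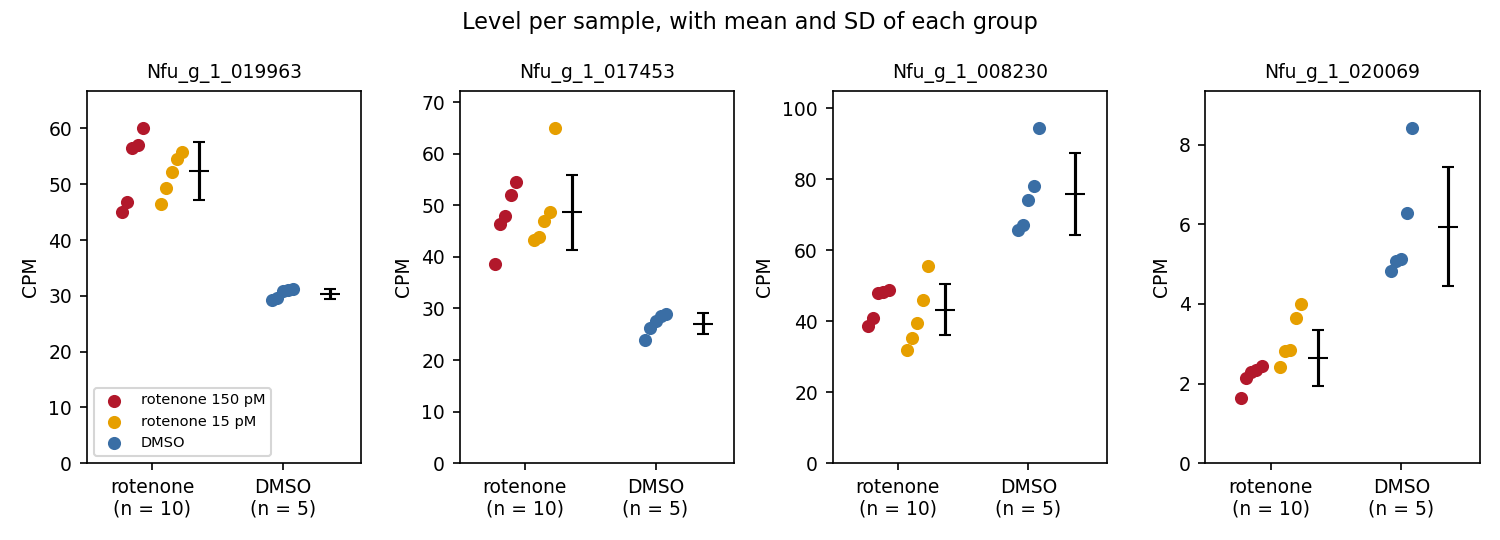
Level in CPM (linear axis from 0) of the 2 called genes and of the 2 lowered genes with the smallest p, with 1 point per sample and the mean and SD of each group beside the points. In all 4 genes the 10 rotenone samples do not overlap the 5 DMSO samples, and points of 150 pM and 15 pM fall in the same range except for Nfu_g_1_020069, where 150 pM lies mostly lower.

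With all 15 samples, many genes lay just past the threshold. The third-lowest adjusted p was 0.0594, shared by 12 genes, and at an adjusted p under 0.1 there were 168 genes, 0.920% of those tested. This number moved with the sample left out, which also makes a group smaller. It was 2 without DMSO replicate 2 or without DMSO replicate 4, 4 without DMSO replicate 5, 8 without DMSO replicate 1 and 52 without DMSO replicate 3. Of the 15 pM samples, it was 15 without replicate 1, 189 without replicate 2, 24 without replicate 3, 841 without replicate 4 and 412 without replicate 5. Of the 150 pM samples, it was 66 without replicate 1, 88 without replicate 2, 37 without replicate 3, 96 without replicate 4 and 59 without replicate 5. With no filter on low counts it was 34, and with at least 1 CPM in 5 samples 242. It was 169 with DESeq2 size factors, 268 with upper-quartile factors and 209 by limma-voom. A mean per dose gave 502, the DESeq2 Wald test 1142 and limma-voom with quality weights 3164. Of the 168 genes, 64 had a higher level with a median log2 fold change of 0.80, and 104 had a lower level with a median of -0.77. For the 64 genes the median log2 fold change against DMSO was 0.72 at 150 pM and 0.87 at 15 pM. For the 104 genes it was -0.74 at 150 pM and -0.73 at 15 pM. Both doses were set against the same DMSO samples and the genes were chosen on all of these samples, so the likeness of the doses is a description. The dose test called 2 of the 64 and 1 of the 104, against 1.70% of all genes, so these counts lie near those of genes at large.

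**Figure D3:**
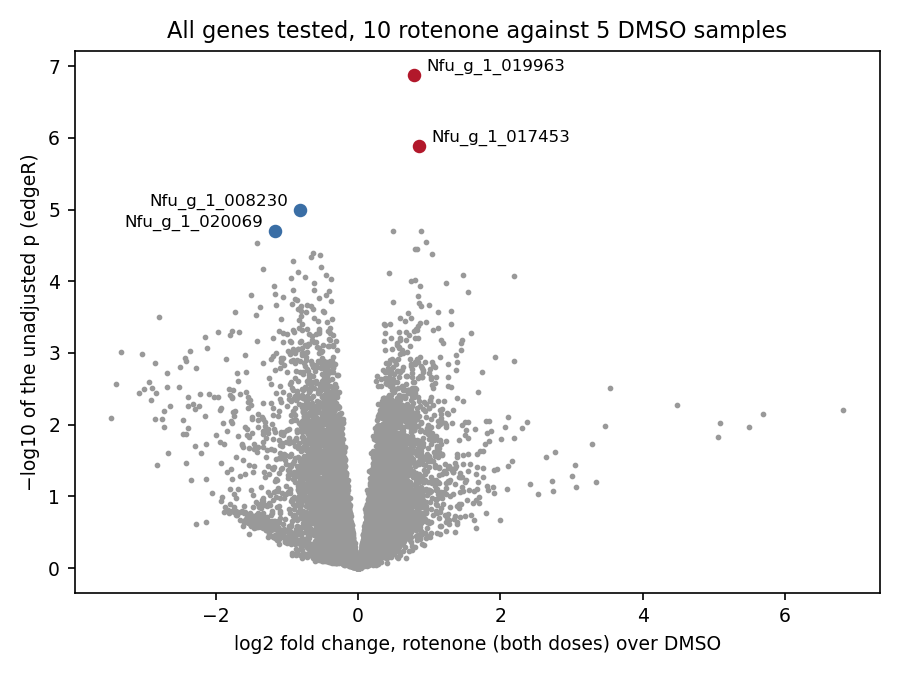
Log2 fold change of rotenone over DMSO against −log10 of the unadjusted p for the 18253 tested genes, 1 point per gene. The 2 called genes (red) stand above the rest at changes under 1, the 2 lowered genes with the smallest p are in blue, and the genes with changes over 4 have far larger p.

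Most estimated differences were small. The 25th and 75th percentiles of the log2 fold change over all tested genes were -0.19 and 0.23. The 5th and 95th percentiles were -0.66 and 0.63, and the median standard error was 0.21. The median of 0.02 is held near 0 by the TMM scaling and does not measure the size of changes. For 13433 genes, 73.6% of those tested, the 95% interval lay within 1 on the log2 scale in both directions. By mean CPM, this share was 44.0% in the least abundant quintile of genes and 84.0% in the most abundant. A change of over 1 was estimated for 678 genes, 3.71%, and of over 2 for 81 genes. Among the 20 most abundant genes, at 4017 to 37499 CPM on average, 10 were higher and 10 lower, by -0.73 to 0.68 on the log2 scale. The smallest adjusted p from edgeR among these 20 was 0.221.

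Among the largest pooled log2 fold changes, 15 pM stood above 150 pM for 26 of the 30 genes over 2. The same held for 41 of the 51 genes under -2. The median difference of 150 pM from 15 pM was -3.01 and -1.17 on the log2 scale. No such count over all genes is given here, so this is a description only. For the 30 genes with a pooled log2 fold change over 2, the median log2 fold change against DMSO was 0.49 at 150 pM and 3.44 at 15 pM. The dose test called 9 of the 30, against 1.70% of all genes. The 15 pM group includes replicate 4, which stood apart on the first principal component. These values were not computed without it, and its part in them was not tested. These genes varied widely between samples, with a median coefficient of variation of 1.57 in the rotenone group and 0.655 in DMSO. Their adjusted p from edgeR in the pooled comparison was 0.0676 to 0.422, and for 1 of the 30 the groups did not overlap, where this held for 1.26% of all genes. The 51 genes with a pooled log2 fold change under -2 had a median of -3.09 at 150 pM and -2.12 at 15 pM, and the dose test called 0 of them. Their level was low, with medians of 0.493 CPM with rotenone and 2.57 CPM with DMSO, and the groups overlapped for all 51, counts near that share of all genes. Here the DMSO samples varied more, with a median coefficient of variation of 0.853 with rotenone and 1.21 with DMSO.

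How many samples shared a difference was read from the DMSO range. A rotenone sample had between 7801 and 12693 genes outside the range of the 5 DMSO samples, 42.7% to 69.5% of those tested. A sample without any change would also leave the range of 5 others for many genes, so these counts do not measure an effect. The lowest number was in 150 pM replicate 4 and the highest in 15 pM replicate 4, followed by 11604 in 15 pM replicate 5. Few of these genes were outside on the same side in every rotenone sample. At least 8 of the 10 samples lay above the DMSO range for 877 of the 18253 tested genes and below it for 999. All 10 lay above it for 86 genes and below it for 144. These 230 genes were 1.26% of those tested. Unlike the 0.0110% called at an adjusted p under 0.05, this share is not corrected for the number of genes, so the shares are not alike. In edgeR's test all 86 and 143 of the 144 had an unadjusted p under 0.05, which 14.9% of all genes reached. The 230 genes were chosen on the separation of these same samples, so their small p is no further support. Leaving out a sample loosens the criterion of no overlap by construction. The number of such genes was 379 without DMSO replicate 3, 393 without DMSO replicate 5, 355 without 15 pM replicate 2 and 357 without 15 pM replicate 4. The excess of genes below the range also depended on single libraries, with 194 above and 185 below without DMSO replicate 3 and 185 above and 170 below without 15 pM replicate 2. Without DMSO replicate 4 it was nearly even, with 145 above and 147 below.

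**Figure D4:**
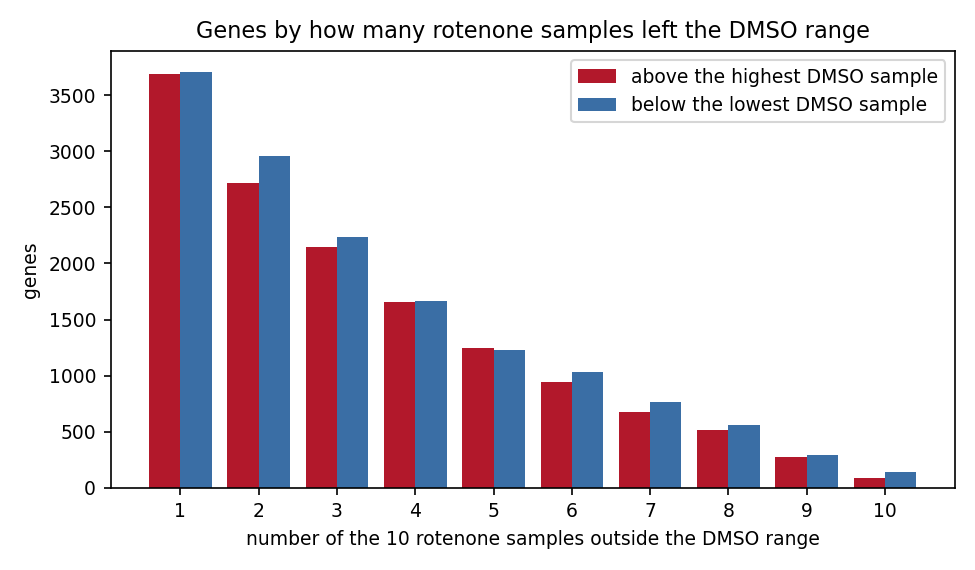
Number of genes (y axis) by how many of the 10 rotenone samples lay above the highest (red) or below the lowest (blue) of the 5 DMSO samples. The bars shrink steadily from 3687 and 3711 genes at 1 sample to 86 and 144 genes at all 10.

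The 86 genes above the DMSO range in all rotenone samples had log2 fold changes of 0.25 to 2.20 with a median of 0.55, and 12 of them exceeded 1. Their median level was 31.2 CPM with rotenone and 19.5 CPM with DMSO. The median log2 fold change against the shared DMSO samples was 0.43 at 150 pM and 0.70 at 15 pM. The dose test called 4 of the 86, against 1.70% of all genes. An unadjusted p under 0.05 in that test was reached by 20 of the 86 and by 22.7% of all genes. Of these 20, 3 were higher and 17 lower at 150 pM. No split by direction over all genes is given here, so this split is a description only. The 144 genes below the DMSO range had log2 fold changes of -1.52 to -0.14 with a median of -0.56, and 14 of them exceeded 1 in size. Their median level was 11.6 CPM with rotenone and 16.8 CPM with DMSO. Their median was -0.53 at 150 pM and -0.58 at 15 pM, and the dose test called 1 of the 144, also against 1.70% of all genes. An unadjusted p under 0.05 in the dose test was reached by 11 of the 144, against 22.7% of all genes. Of these 11, 7 were higher and 4 lower at 150 pM, again without a split over all genes. The 86 and the 144 genes were chosen with the samples of both doses beyond the DMSO range. That choice can disfavour genes with a wide gap between the doses, so likeness of the doses cannot be read from these shares.

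Among genes with an unadjusted p under 0.05, the balance of directions differed with abundance. In the most abundant quintile of genes, above 37.8 CPM on average, 460 were higher and 187 lower with rotenone. In the least abundant quintile, up to 2.31 CPM, 152 were higher and 291 lower. The median log2 fold change of all genes in the most abundant quintile was 0.07. The median standard error of a single gene there was 0.17, which does not measure the uncertainty of that median. With upper-quartile factors the counts were 387 higher and 237 lower in the most abundant quintile and 135 and 310 in the least abundant. Without 15 pM replicate 4 they were 650 and 299 at the top and 213 and 310 at the bottom. Limma-voom with quality weights gave 722 and 521 at the top and 348 and 372 at the bottom. By gene length, taken from the ratio of the deposited counts to the RPKM, the share of genes under this p was 13.3% to 16.0% in every quintile.

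Presence or absence did not separate the groups. Genes counted in all 10 rotenone samples and in none of the DMSO samples numbered 0, and genes counted in all 5 DMSO samples and in no rotenone sample also numbered 0.

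The number of called genes moved with 1 library and with how the doses and the spread were modelled. Without 15 pM replicate 4, the same edgeR test called 200 genes, 1.10% of those tested, 91 raised with a median log2 fold change of 0.73 and 109 lowered with a median of -0.72. With this library the typical gene had a standard deviation of 0.328 in log2(CPM + 1) over the 10 rotenone samples, and without it 0.277 over 9. Both values include any gap between the doses. Within single groups it was 0.210 at 150 pM, 0.353 at 15 pM and 0.180 with DMSO. The 15 pM group without replicate 4 had 0.270. Leaving out 15 pM replicates 1 and 4 gave 62 genes, and leaving out DMSO replicate 5 and 15 pM replicates 2 and 4 gave 44, 13 of them raised and 31 lowered. Both genes named as called above were among those called in each of these 3 sets.

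With a mean for each dose and the average of the doses set against DMSO, edgeR called 68 genes, 0.373% of those tested, 33 raised and 35 lowered. A gap between the doses does not add to the spread in this fit. The dose test called 11 of the 68 genes, 16.2%, against 1.70% of all genes. Both tests came from the same fit with the same spread per gene, and a small estimated spread makes either call easier. These shares are therefore a description only. For the 33 raised genes the median log2 fold change against DMSO was 0.73 at 150 pM and 0.99 at 15 pM, with a lowest value of -1.69 at 150 pM, so the average did not reflect both doses in every raised gene. The 35 lowered genes were all below DMSO at both doses, with a median of -0.56 and a highest value of -0.29 at 150 pM, and a median of -0.75 and a highest value of -0.36 at 15 pM. For 45 of the 68 genes the 10 rotenone samples did not overlap the DMSO samples, against 1.26% of all tested genes, but the 68 were chosen on the separation of these same samples.

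**Figure D5:**
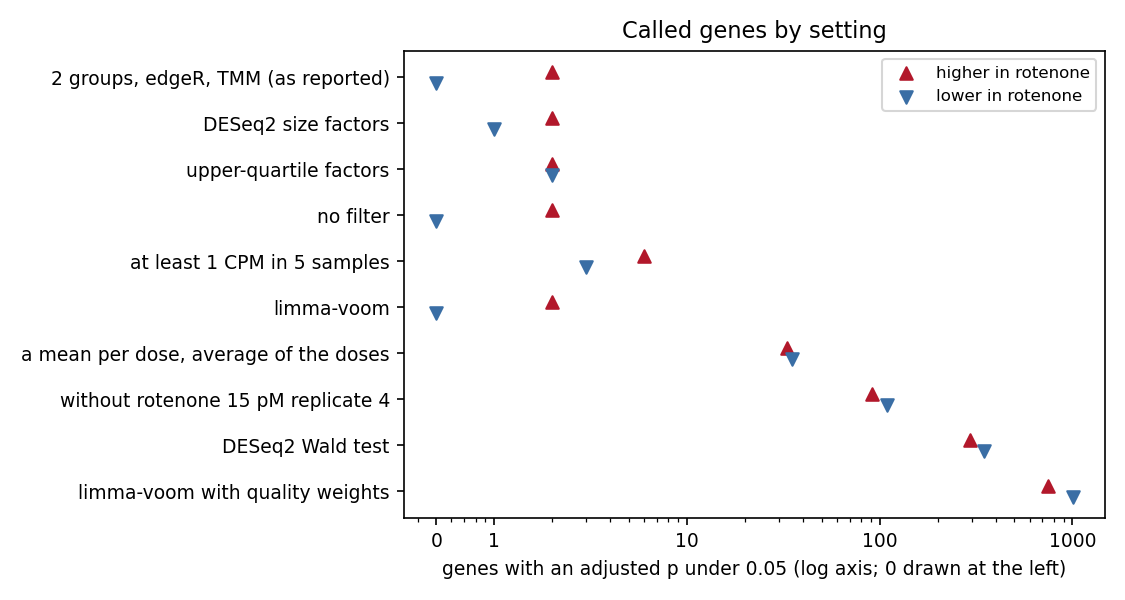
Number of genes with an adjusted p under 0.05 (log axis, 0 drawn at the left edge) that were higher or lower with rotenone, for the test as reported and 9 other settings. The counts run from 2 higher and 0 lower genes as reported to 752 higher and 1007 lower genes when limma-voom weighted the samples by quality.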

How the data were processed

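Libraries were made from total RNA of skin with the TruSeq kit version 2 according to the labels, so strand was not recorded and overlapping antisense genes cannot be told apart. The submitters' processing notes name CASAVA 1.8.2, STAR 2.4.1d and featureCounts 1.4.6-p4, while build, annotation and the handling of reads shared by near-identical genes were not given. The authors deposited raw counts per gene and RPKM values. The deposited RPKM followed from the counts with 1 gene length for 100% of 3936 well-covered genes (tolerance 1%) only when the library totals were repeated down the rows, and for 0% with each sample's own total, so RPKM served only to derive gene lengths.

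The test was edgeR 4.0.16 under R 4.3.3 on the deposited counts (quasi-likelihood test, TMM factors, filterByExpr with a minimum count of 10 and total of 15), with the 10 rotenone samples as 1 group and 5 DMSO samples as the other. P-values were adjusted by Benjamini-Hochberg over 18253 genes. The dose test and dose values came from a fit with a mean per dose. DESeq2 1.42.0 and limma 3.58.1 were alternatives. In 3 simulated sets with 200 changed genes, the pooled test recovered 92.3% of genes changed by 2 and 55.3% of those changed by 1 on the log2 scale, with 3.68% false calls. Changes were placed only in genes averaging over 1 CPM. These sets drew genes independently, with a gene's spread equal in both groups and no library set apart, unlike the data. The rates therefore do not carry over to the test of these samples. Groups came from the labels, and replicates are numbered in the order of registration. The labels do not say that samples came from separate fish, and p-values therefore cover only the spread of these samples, part of which may be technical. No pair of replicates agreed within counting noise (chi-square per degree of freedom of 25.5 or more).

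The comparison, lists and alternatives were chosen with earlier results of these data known. Named genes were to be the 2 raised and 2 lowered called identifiers with the smallest p and no overlap between groups. Gene lists by name were prepared but not used, since 0 identifiers matched the RefSeq table of 38438 genes.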

Additional observations from a re-analysis of the deposited data

Results flagged for a closer look

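In 3 of 32 sets of values examined, 1 sample lay apart from the others of its group, and chance gives about 1 in 20. Nfu_g_1_017453 had 65.0 CPM in 15 pM replicate 5, against 43.2 to 48.8 CPM in the other 15 pM samples. At 150 pM, replicate 2 was the deepest sample with 28314659 counts, while the rest of that group had 23983152 to 24878602. DMSO replicate 5 had 21505 genes with at least 1 count, against 20966 to 21085 in the other DMSO samples, and it also stood apart on the second principal component. The part of these samples in the results was not tested beyond leaving each out.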

How the results depend on the processing

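The count of 2 called genes was 1 to 200 when each of the 15 samples was left out, 1 without DMSO replicate 2 and 200 without 15 pM replicate 4, and 2 or 3 without any other sample. It was 4 with upper-quartile factors (2 raised, 2 lowered), 3 with DESeq2 size factors (2 and 1), 9 with at least 1 CPM in 5 samples (6 and 3), 68 with a mean per dose (33 and 35), 641 by DESeq2 (295 and 346) and 1759 by limma-voom with quality weights. Chosen after seeing the data, a mean per dose without 15 pM replicate 4 gave 558, leaving out 15 pM replicates 1 and 4 gave 62, leaving out the 3 samples apart on the principal components gave 44, and an adjusted p under 0.1 gave 168. The cause was not tested.

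The named genes were picked by their p in these samples, and the settings refit the same samples, so the tallies are not independent support. Nfu_g_1_019963 was called in 28 of 28 settings (log2 fold change 0.76 to 0.81, adjusted p up to 0.0200) and Nfu_g_1_017453 in 27 of 28 (0.76 to 0.88). Nfu_g_1_008230 and Nfu_g_1_020069 passed in 10 of 28 each, with adjusted p from 5.84e-06 to 0.168 and from 3.47e-05 to 0.202, and kept their direction in all. The 230 genes without overlap became 252 to 393 with 1 sample left out and 244 to 258 with other scaling or filters. Of the 68 genes called with a mean per dose, 53 (77.9%) were among the 200 called without 15 pM replicate 4. Those 200 were 1.10% of the genes tested in that fit, and the 53 made up 26.5% of them. The fits share all samples but that replicate, so this overlap is not independent support. The dose test in only the 10 rotenone samples called 0 of the 2 genes, but only 44 of 17736 genes (0.248%) in all, so this says little. Without 150 pM replicate 2 the lower total count with rotenone had an exact permutation p of 0.0370 (difference -1874854). This p was not adjusted over the 4 properties or over the samples left out. The difference ranged from -1901538 to -1032872 with 1 sample left out. No other sample property had an unadjusted p under 0.05.

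Title numbers 1 to 5 occur in both the DMSO and the 15 pM group. They were not taken as pairs, since deviations of same-numbered samples correlated at -0.27 to 0.33 and 0 of 5 samples were closest to their own number. With the replicate block, limma-voom called 2 genes, as it did without.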
